A study of Homo sapiens with 8 samples.

Results

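The fitness of gene knockouts in growing, drug-free cells was measured from 4 libraries of a pooled CRISPR screen, namely the 2 untreated libraries collected after 72 h and the 2 T0 libraries, taken just before treatment began. These 4 libraries were chosen from the 8 of the screen by their labels alone, and all guides of the library were used. PC9, a lung cancer line (NSCLC) with a mutant EGFR, expressed the Cas9 nuclease and carried TKOv3, a genome-wide library with up to 4 single guide RNAs for each gene. All groups shared the Cas9 line and the guide library, T0 cells had been selected for infected cells with puromycin and left to recover, and untreated cells were kept for 72 h in vehicle (DMSO) and passaged on the way. The other 4 libraries came from cells kept for 72 h in 10 µM erlotinib or 0.1 µM osimertinib, which are EGFR kinase inhibitors. They entered the fits to estimate the spread between libraries. The labels describe infection with the guide library in duplicate, and the p-values given here reflect only how much these 8 libraries varied.

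In such a screen, each cell carries a guide that directs Cas9 to cut a gene, and repair of the cut usually destroys the gene's reading frame. Reads of the guide in genomic DNA stand in for the number of cells with that knockout, so a guide becomes rarer when its knockout slows division or kills the cell. Genes that build ribosomes, copy DNA or degrade proteins are needed by every dividing cell and are known as core essential genes. Guides whose sequence matches no site in the genome (non-targeting guides) cause no cut, whereas guides to genes that lung cells do not express, such as olfactory receptors, cause a cut without the loss of a needed protein. The guide sequences themselves were not part of the files used here, and guides are therefore described by their target gene.

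The libraries held 36937793 and 39197691 reads at T0 and 34892009 and 37234499 reads in untreated cells, with a median of 483 to 549 reads per guide. Between 206 and 257 guides had no read in a library. After the lowest 5% of guides were left out, 67531 guides remained, of which 138 were non-targeting, and 17761 of 18052 genes had at least 2 guides. The log2 fold change (L2FC) of a gene is the median over its guides, relative either to the non-targeting guides or to all targeting guides of the same library. L2FC is given relative to non-targeting guides unless stated, and T0 values are deviations from the mean of the T0 libraries, so they mirror each other. The standard error (SE) of a gene's L2FC, from 2 libraries in each group, had a median of 0.072. Across genes, which are not independent replicates, the changes of the untreated libraries from the T0 mean were correlated with r = 0.867. Both changes use the same T0 mean, which can raise r.

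Relative to non-targeting guides, knockouts were slightly rarer after 72 h almost throughout the library, and a small set was lost strongly. The median gene had an L2FC of -0.16, and its value was -0.16 in each untreated library. On this scale, which also applies to later percentages of the T0 level, it stood at 89.7% of its level at T0. Values ranged from -1.83 to 0.28, with 16796 genes below 0. Olfactory receptors had a median of -0.12, and taste receptors and keratin-associated proteins -0.10. In counts scaled to library size, the median targeting guide went from 14.03 at T0 to 13.87 in untreated cells. The median non-targeting guide went from 15.0 to 17.1. How much of the shift came from loss of gene function was not tested. For reference, genes of 8 lists (both ribosomal subunits, RNA polymerases, spliceosome, both parts of the proteasome, cytosolic synthetases and DNA replication) were pooled as core essential genes, whose median was -0.69. Non-targeting guides taken 4 at a time and treated as genes gave 34 values between -0.079 and 0.14. Relative to non-targeting guides, 7757 genes (43.7% of those tested) were called lower and 4 (0.0225%) higher by limma at an adjusted p under 0.05. Relative to all targeting guides, 1650 genes (9.29%) were called lower and 317 (1.78%) higher, and all of the 1650 were also lower relative to non-targeting guides. The 6107 genes that were lower relative to non-targeting guides only had a median L2FC of -0.24, against -0.65 for the 1650 genes. The 317 genes called higher relative to targeting guides lay between -0.0089 and 0.28.

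Most counts fell when a library was left out. Without T0 replicate 1, 4178 genes were lower relative to non-targeting guides and 1054 relative to targeting guides. Without T0 replicate 2, the counts were 4392 and 1080. Without untreated replicate 2, 5071 genes were lower relative to non-targeting guides. Genes called higher relative to targeting guides numbered 52 without T0 replicate 1, 77 without T0 replicate 2, 133 without untreated replicate 1 and 155 without untreated replicate 2. Those higher relative to non-targeting guides, 4 with all libraries, numbered 2, 1, 2 and 5.

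**Figure D1:**
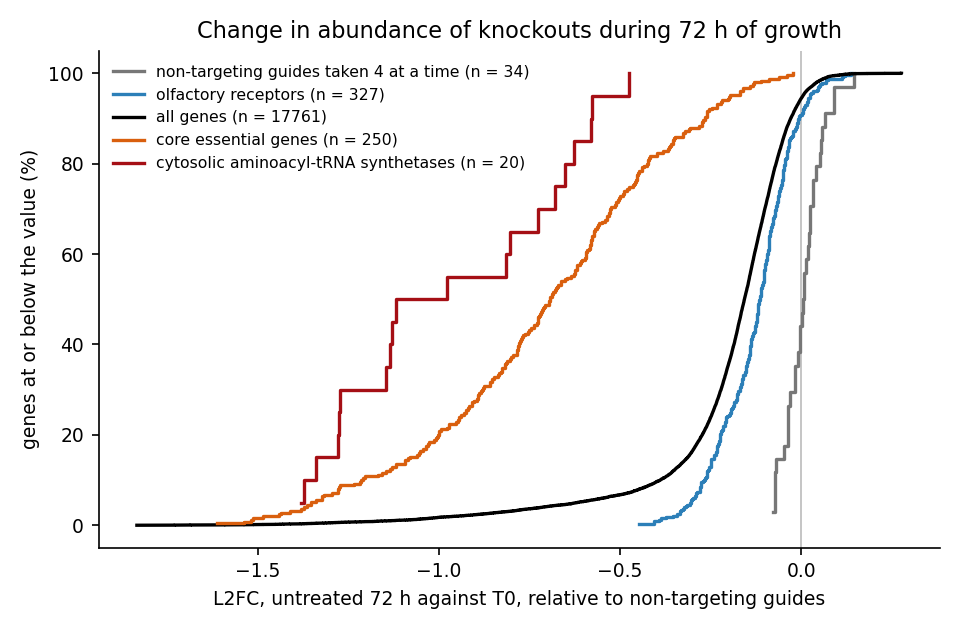
Cumulative share of genes (y axis, percent) at or below a given L2FC of untreated cells against T0 relative to non-targeting guides (x axis), for non-targeting guides taken 4 at a time, olfactory receptors, all genes, core essential genes and cytosolic aminoacyl-tRNA synthetases. The curve of all genes lies left of the non-targeting guides with a median of -0.16, and the synthetases lie farthest left with a median of -1.05.

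Below an L2FC of -1, the level at which 50% of the T0 abundance remained, lay 310 genes (1.75%). All 310 were called lower with both references, and 172 of them (55.5%) belonged to one of 64 lists of known pathways and complexes, which held 12.4% of all genes tested. The 15 lowest genes with at least 3 kept guides, all below the median of non-targeting guides, came from many processes. In the T0 libraries their values lay between -0.13 and 0.13, and in the untreated libraries between -1.99 and -1.39. Since these genes were picked for this difference, the gap between the groups is a description only.

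Knocking out RABGGTB, the catalytic subunit of the enzyme that attaches geranylgeranyl lipids to Rab proteins, gave the lowest value. Its 4 guides had 363, 498, 416 and 441 reads in T0 replicate 1 and 92, 135, 106 and 164 reads in untreated replicate 1. In replicate 2 of these groups they had 399, 583, 379 and 528 and then 134, 207, 108 and 163 reads. The untreated libraries were at -1.99 and -1.68, for an L2FC of -1.83 with an SE of 0.13 (adjusted p = 8.38e-12, limma). GMPPB, which makes the GDP-mannose used for glycans, had untreated values of -1.70 and -1.93 (L2FC = -1.81). The zinc finger protein ZNF407 had values of -1.82 and -1.76 (L2FC = -1.79), although its guides ranged from -2.22 to -0.71.

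Among the 15 were GPN3, which helps to assemble RNA polymerase II (-1.77), the shared polymerase subunit POLR2L (-1.61), the capping enzyme RNGTT (-1.73), the lariat debranching enzyme DBR1 (-1.73), the splicing helicase DDX46 (-1.67), the polyadenylation factor WDR33 (-1.70) and THOC3 of the export complex THO (-1.61). The untreated libraries differed most for THOC3, at -1.83 and -1.39, and both were well below the T0 libraries at 0.016 and -0.016. The others were PMPCA, which cleaves the targeting peptides of mitochondrial proteins (-1.72), the N-terminal acetyltransferase NAA10 (-1.72), mevalonate kinase MVK (-1.70), TRAPPC1, which tethers transport vesicles (-1.68), and KIAA1432 (-1.65), a partner in activating the Golgi protein RAB6. The highest adjusted p among the 15 was that of POLR2L, 1.5e-08 (limma). Guides still differed in size, from -2.11 to -0.49 for THOC3, -1.90 to -0.62 for DBR1 and -1.79 to -0.51 for MVK. Without the filter on low guides, DBR1 moved from -1.57 to -1.03 and MVK from -1.54 to -0.94 relative to targeting guides. The low values of these 2 genes thus depended in part on that filter.

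**Figure D2:**
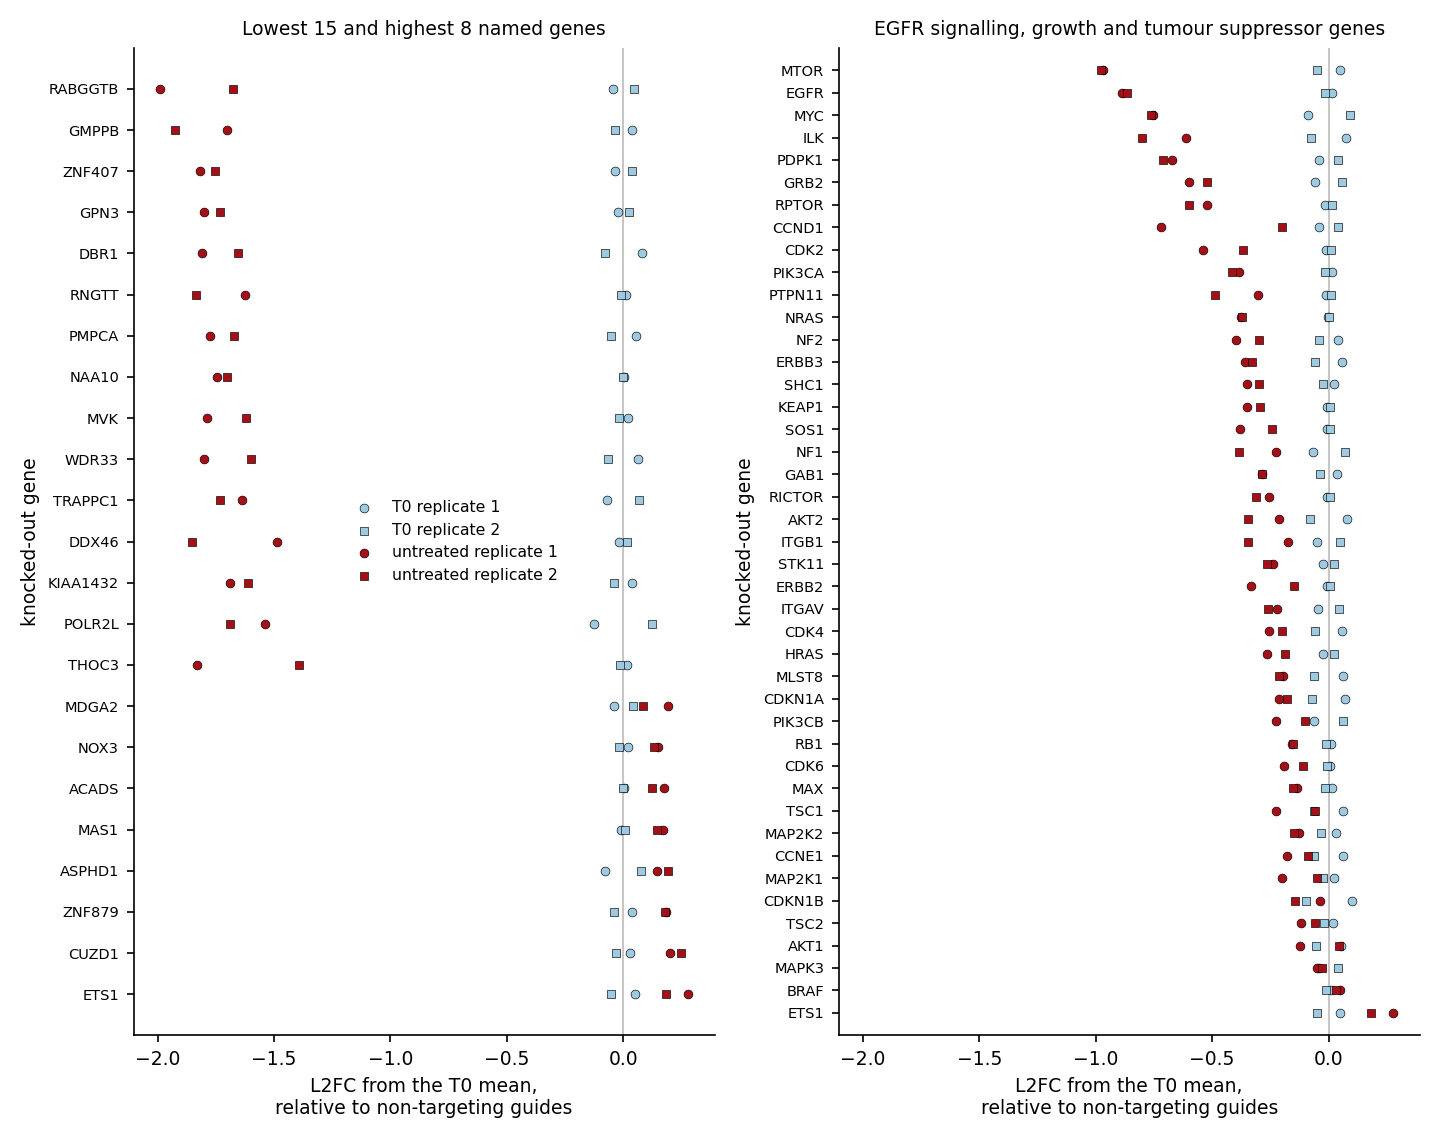
L2FC from the T0 mean relative to non-targeting guides (x axis) in each T0 library (blue) and untreated library (red), with circles for replicate 1 and squares for replicate 2, for the knocked-out genes on the y axis. The lowest 15 genes lie below -1.39 in both untreated libraries (left), and among the EGFR signalling, growth and tumour suppressor genes plotted, MTOR and EGFR lie lowest (right).

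Cytosolic synthetases, ribosome assembly factors and the RNA exosome had the lowest medians of the 64 lists. All 20 cytosolic aminoacyl-tRNA synthetases, which charge transfer RNAs with amino acids, were lower with both references, with a median L2FC of -1.05 and values from YARS at -1.38 to CARS at -0.48. Ribosome assembly factors had a median of -1.01, and 64 of 64 were lower relative to non-targeting guides and 60 relative to all targeting guides, such as DKC1 (-1.49), GNL3 (-1.43) and PES1 (-1.42). Ribosomal proteins themselves had medians of -0.84 for the 40S subunit, with 21 of 22 lower, and -0.77 for the 60S subunit, with 32 of 34 lower. RPL8 of the 60S subunit had the lowest value of them (-1.32). Of translation initiation and elongation factors, 40 of 40 were lower, with EIF2B5 at -1.34 and EIF3D at -1.29. These shares, and those of the lists below, are to be read against all genes. Of all genes, 43.7% were lower relative to non-targeting guides and 9.29% with both references. The lists themselves were not tested.

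RNA polymerase subunits had a median of -0.83, with 27 of 29 lower. Subunits of polymerase III, which transcribes transfer RNAs, were among the lowest, including POLR3A at -1.49, POLR3C at -1.44 and POLR3B at -1.41. The RNA exosome, which trims and degrades RNA, had 17 of 18 lower with a median of -0.95, led by EXOSC4 (-1.45), EXOSC2 (-1.32) and EXOSC5 (-1.30). In contrast, SKIV2L, a cytoplasmic helicase of this list, had a value of -0.11. The spliceosome had 50 of 57 lower with a median of -0.57, from PRPF38B at -1.54 to SNRPB at -0.09. Nuclear pore and export genes had a median of -0.46 and 29 of 32 lower, with the pore protein NUP43 at -1.29 and the exportin XPO1 at -1.17.

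**Figure D3:**
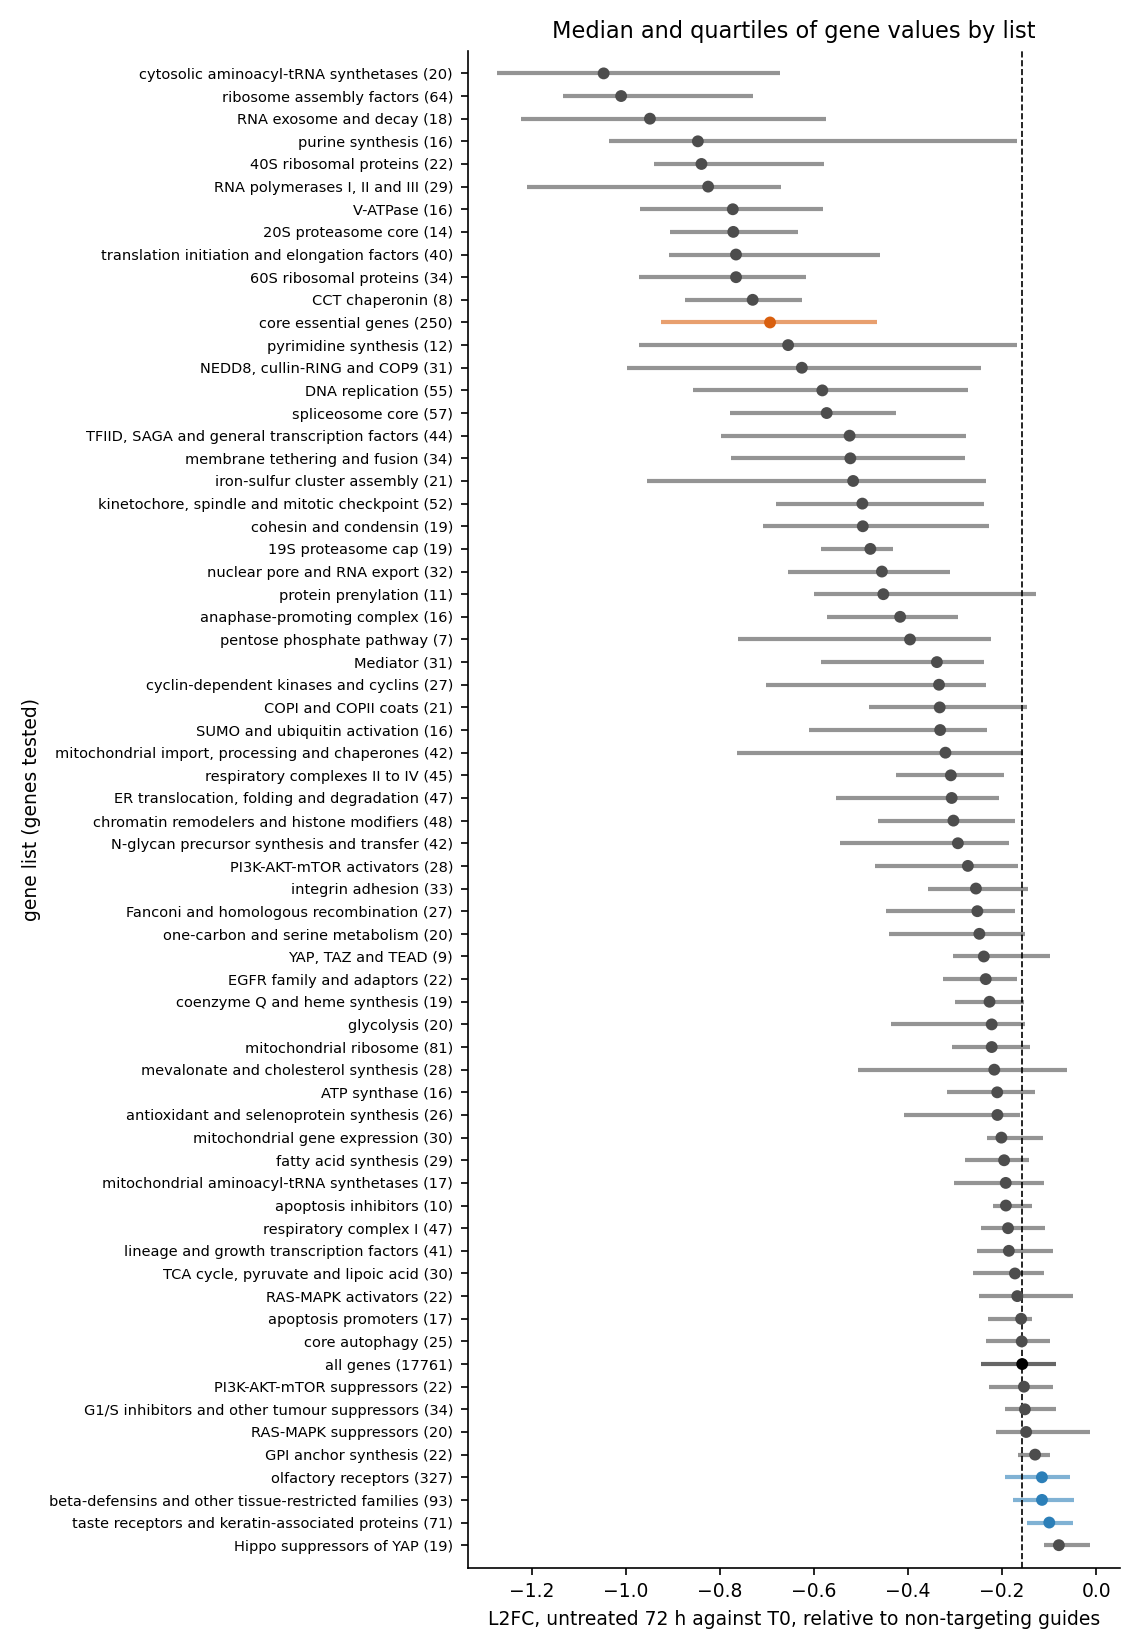
Median (point) and quartiles (line) of the L2FC of untreated cells against T0 relative to non-targeting guides (x axis) for each gene list, with the number of genes tested in parentheses (y axis). The dashed line marks the median of all genes at -0.16, blue lists are tissue-restricted families, orange marks the core essential genes, and the synthetases, ribosome assembly factors and exosome have the lowest medians.

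In purine synthesis, 10 of 16 genes were lower with both references, and these were the enzymes that build and convert the ring (ADSL at -1.36, PFAS at -1.17, GMPS at -1.04, GART at -1.04, PPAT at -1.01, PAICS at -0.85, ATIC at -0.84, ADSS at -0.81 and IMPDH2 at -0.98) and the guanylate kinase GUK1 (-1.18). The salvage enzymes HPRT1 (-0.09) and APRT (-0.16), which recycle finished bases, did not pass either test, and PRPS2 (0.10) was higher relative to targeting guides. IMPDH1, the other IMP dehydrogenase, was at -0.17. In pyrimidine synthesis, 7 of 12 were lower with both references, including CMPK1 (-1.34), DUT (-1.27), DHODH (-0.98), CTPS1 (-0.92), UMPS (-0.83) and thymidylate synthase TYMS (-0.48). The salvage kinases UCK2 (-0.08) and TK1 (-0.02) and the second CTP synthase CTPS2 (-0.06) did not pass. CAD, which starts pyrimidine synthesis, was lower relative to non-targeting guides only (-0.36).

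In the pentose phosphate pathway, which supplies ribose and NADPH, PGD had the lowest value (-1.32), followed by RPE (-0.95), TKT (-0.58) and RPIA (-0.40). These 4 of 7 genes were lower with both references. TALDO1 was at -0.19 and lower relative to non-targeting guides only. In one-carbon metabolism the median was -0.25 and 7 of 20 genes were lower with both references, against 9.29% of all genes. Among them were MAT2A, which makes S-adenosylmethionine (-0.91), and MTHFD1 (-0.82). The mitochondrial enzymes SHMT2 (-0.03), MTHFD2 (-0.10) and MTHFD1L (-0.06) did not pass either test. Glycolysis had a median of -0.22, with ENO1 (-0.93), GAPDH (-0.79), PGK1 (-0.71), GPI (-0.55) and HK1 (-0.46) lower with both references. The remaining 15 glycolytic genes, including LDHA (-0.05) and SLC2A1 (-0.15), did not pass relative to all targeting guides.

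The lowest gene, RABGGTB, lies at the end of a route that begins with mevalonate. This route makes isoprenoids, which are used to lipidate small GTPases, to build dolichol for glycan transfer and to make cholesterol. Mevalonate and cholesterol synthesis as a whole had a median of -0.22 with 7 of 28 genes lower with both references, against 9.29% of all genes. These were MVK (-1.70), GGPS1, which makes geranylgeranyl diphosphate (-1.45), MVD (-0.53), IDI1 (-0.40), and the sterol sensing genes MBTPS1 (-0.97), SCAP (-0.91) and MBTPS2 (-0.84). Enzymes of the branch to cholesterol, which were FDFT1 (-0.09), LSS (-0.14), DHCR7 (-0.16), EBP (-0.06) and CYP51A1 (-0.06), did not pass either test.

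Among prenylation genes, RABGGTA (-1.31), the partner of RABGGTB, PGGT1B, which serves a related lipid transferase (-0.64), and the farnesyltransferase subunits FNTB (-0.56) and FNTA (-0.45) were lower with both references. The protease RCE1, which acts after lipid transfer, was at -0.06. Genes for the N-glycan precursor had a median of -0.29 with 32 of 42 lower, 18 of them with both references. They included DHDDS, which elongates dolichol (-1.44), DPAGT1 (-1.25), ALG1 (-1.16) and ALG2 (-1.30), which add the innermost sugars, and DAD1 (-1.46), RPN1 (-1.06) and DDOST (-1.05) of the transferase complex. Genes for the terminal glucoses were less far from the median of all genes, with ALG6 at -0.49 and ALG8 at -0.27. The alternative catalytic subunits STT3A and STT3B were at -0.27 and -0.13, and only STT3A passed, relative to non-targeting guides.

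Protein turnover and folding genes were lower in most cases. All 14 genes of the 20S proteasome core were lower relative to non-targeting guides with a median of -0.77, and all 19 of the 19S cap with a median of -0.48, against 11 and 9 relative to all targeting guides. All 8 subunits of the CCT chaperonin, which folds actin and tubulin, were lower with both references, between CCT2 at -1.05 and CCT3 at -0.59. Genes for the modifier NEDD8 and the cullin ubiquitin ligases that it activates had a median of -0.63 and 28 of 31 lower. They included NAE1 of the activating enzyme (-1.25), COPS5, which removes NEDD8 (-1.19), elongin B (TCEB2, -1.18), RBX1 (-1.05), DDB1 (-1.01), VHL (-1.004) and CUL3 (-0.99).

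The NEDD8 conjugating enzymes differed. UBE2F had an L2FC of -0.79, while UBE2M had an L2FC of 0.05 and was higher relative to targeting guides. VHL is known as a tumour suppressor in kidney and forms a ligase with elongins, CUL2 (-0.63) and RBX1. The V-ATPase, which acidifies lysosomes, had 15 of 16 lower with a median of -0.77, such as ATP6AP2 (-1.37), ATP6V0C (-1.32) and ATP6V1A (-1.11). The SUMO activating subunits UBA2 and SAE1 were at -0.79 and -0.67, both lower with both references. In membrane traffic, the TRAPP tethers TRAPPC1, TRAPPC4 (-1.41) and TRAPPC3 (-1.34) and the coat subunit COPE (-1.47) were lowest. Protein entry into the endoplasmic reticulum was represented by SRP19 (-1.58), SRP14 (-1.37), and WRB (-1.42) and ASNA1 (-1.38), which insert tail-anchored proteins.

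Mitochondrial gene groups differed in their medians. Import, processing and chaperone genes had a median of -0.32, and 20 of 42 were lower with both references, led by PMPCA, SAMM50 (-1.35), GRPEL1 (-1.34), CHCHD4 (-1.15) and PHB2 (-1.12). Iron-sulfur cluster assembly had a median of -0.52 with 13 of 21 lower with both references. The lowest were NARFL (-1.37) and NUBP1 (-0.96), which act in the cytosol, and HSCB (-1.03), LYRM4 (-0.96), NFS1 (-0.96) and the ferredoxin FDX1L (-0.95), which act in mitochondria. Respiratory complexes II to IV had a median of -0.31 with 14 of 45 lower with both references, including UQCRFS1 (-1.01), SDHB (-0.99) and SDHA (-0.77). Complex I had a median of -0.19, and 3 of 47 (6.38%) were lower with both references, below the 9.29% of all genes. These were NDUFA13 (-0.49), NDUFA11 (-0.44) and NDUFS5 (-0.44).

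The mitochondrial ribosome had a median of -0.22 with 9 of 81 lower with both references, close to the 9.29% of all genes, and mitochondrial synthetases had 2 of 17. In the TCA cycle list, 5 of 30 genes were lower with both references, including DLST (-0.74), IDH3A (-0.64), OGDH (-0.62) and the lipoate synthase LIAS (-0.51). FH (-0.13), MDH2 (-0.12) and PDHA1 (-0.09) did not pass either test. Of 26 antioxidant genes, 7 were lower with both references, including SOD1 (-0.85), TRNAU1AP, which is needed to make selenoproteins (-0.63), the regulator NFE2L2 (-0.58) and the lipid peroxidase GPX4 (-0.57). Differences between these lists were not tested.

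Of 55 DNA replication genes, 44 were lower relative to non-targeting guides and 33 with both references, with a median of -0.58. They included GINS2 (-1.52), the clamp loader subunits RFC3 (-1.44) and RFC5 (-1.32), MCM5 (-1.22), PCNA (-1.20) and CDC45 (-1.001). Among cyclin-dependent kinases, those that also act in transcription were lowest, with CDK7 at -1.37, its cyclin CCNH at -1.11 and CDK9 at -1.18. CDK1, which drives mitosis, was at -0.89 and its inhibitory kinase PKMYT1 at -0.81, while WEE1, the other inhibitory kinase, had a value of 0.11. In the kinetochore and spindle list 42 of 52 were lower, led by BUB3 (-1.29), CENPM (-1.16) and CENPN (-1.03). Of 27 genes for homologous recombination and the Fanconi pathway, 9 were lower with both references, against 9.29% of all genes. PALB2 (-0.77), BRCA2 (-0.65) and BRCA1 (-0.53) were among the 9. FANCA (-0.03) and FANCM (0.04) did not pass.

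EGFR, the oncogenic driver of this line, was next examined with its pathways. Its 4 guides had 110, 276, 219 and 352 reads in T0 replicate 1 and 32, 142, 136 and 222 in untreated replicate 1. In replicate 2 they had 116, 256, 226 and 414 reads and then 65, 165, 133 and 235. The untreated libraries were at -0.89 and -0.86 and the T0 libraries at 0.014 and -0.014, for an L2FC of -0.88 with an SE of 0.12 (adjusted p = 1.54e-06 relative to non-targeting and 5.89e-05 relative to targeting guides, limma). About 54.5% of the T0 level remained, beside 48.4% for the median synthetase, and the untreated and T0 libraries did not overlap.

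Of 46 genes of EGFR signalling, growth control and tumour suppression, 29 were lower relative to non-targeting guides (43.7% of all genes were) and 9 were lower with both references (9.29% of all genes were lower relative to targeting guides). The 9 were MTOR, EGFR, MYC (-0.76), ILK, PDPK1, RPTOR, CDK2 (-0.45), PTPN11 (-0.39) and NF2 (-0.35). MTOR, the kinase that couples nutrients to growth, had untreated values of -0.97 and -0.98 (L2FC = -0.97 with an SE of 0.097). Its partner in complex 1, RPTOR, was at -0.52 and -0.60 (L2FC = -0.56), and RICTOR of complex 2 had an L2FC of -0.28. PDPK1, which activates AKT, was at -0.67 and -0.71 (L2FC = -0.69), and the adhesion scaffold ILK at -0.61 and -0.80 (L2FC = -0.71). Of the AKT kinases, AKT2 was lower relative to non-targeting guides only (-0.28) and AKT1 did not pass (-0.04).

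Calls relative to all targeting guides held without any library in turn for MTOR, EGFR and RPTOR. PDPK1 was at -0.46 relative to targeting guides without T0 replicate 2 (adjusted p = 0.0742, limma), and ILK at -0.44 without T0 replicate 1 (adjusted p = 0.105). MYC, whose 3 guides had between 64 and 275 reads at T0, lost this call without any of the 4 libraries (adjusted p between 0.079 and 0.35). CDK2 and NF2 lost it without T0 replicate 1, T0 replicate 2 or untreated replicate 1 (adjusted p between 0.0968 and 0.297), and PTPN11 without either T0 library or untreated replicate 2 (adjusted p between 0.196 and 0.411). With the mean over guides in place of the median, PTPN11 was at -0.13 (adjusted p = 0.125) and CDK2 at -0.19 (adjusted p = 0.0586) relative to targeting guides. In the list of PI3K-AKT-mTOR activators, 9 of 28 genes were lower with both references. Besides MTOR, PDPK1 and RPTOR these were regulators of mTOR at the lysosome, namely RRAGC (-0.56), RHEB (-0.54), LAMTOR5 (-0.58), LAMTOR4 (-0.53), LAMTOR2 (-0.45) and LAMTOR3 (-0.42).

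Most genes of the RAS-RAF-MEK-ERK cascade had values near 0 or near the median of all genes. The kinases BRAF (0.04), MAPK3 (-0.04), MAP2K1 (-0.12) and MAP2K2 (-0.14) did not pass either test. NRAS was lower relative to non-targeting guides in both untreated libraries, at -0.38 and -0.37 (L2FC = -0.37). HRAS was also lower relative to non-targeting guides, at -0.27 and -0.19 (L2FC = -0.23). The adaptors GRB2 (-0.56), SHC1 (-0.32), SOS1 (-0.31) and GAB1 (-0.29) and the receptor ERBB3 (-0.34) were likewise lower relative to non-targeting guides only. For GRB2 this call was lost without T0 replicate 2 (L2FC = -0.51, adjusted p = 0.0945, limma). CCND1, the cyclin of CDK4 and CDK6, differed between libraries, at -0.72 and -0.20, and its L2FC of -0.46 became -0.20 without untreated replicate 1 (adjusted p = 0.236). Of growth transcription factors, FOSL1 (-0.60), FOXM1 (-0.45), GRHL2 (-0.44) and MYBL2 (-0.40) were lower with both references, and the lung lineage factor NKX2-1 was listed at 0.00.

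Few knockouts became more abundant than non-targeting guides. The 4 genes called higher relative to non-targeting guides were ETS1, CUZD1, SPANXD (0.19) and NOX3, and 11 genes were higher at an unadjusted p under 0.05. ETS1, a transcription factor downstream of RAS signalling, had untreated values of 0.28 and 0.18 and T0 values of 0.05 and -0.05, and its 4 guides lay between 0.196 and 0.231. Its L2FC of 0.23 corresponds to 117% of the T0 level (adjusted p = 0.0187, limma). Without T0 replicate 2 it was 0.16 (adjusted p = 0.214) and without untreated replicate 1 0.18 (adjusted p = 0.139). CUZD1 (0.22) lost its call without T0 replicate 1, T0 replicate 2 or untreated replicate 2, with adjusted p between 0.0827 and 0.0963, and NOX3 (0.14) without any of the 4 libraries, with adjusted p between 0.109 and 0.30. ZNF879 (0.18), ASPHD1 (0.17), MAS1 (0.16), ACADS (0.15) and MDGA2 (0.14) were called relative to all targeting guides only. Of these, MAS1 lost its call without either T0 library or untreated replicate 1 (adjusted p between 0.0628 and 0.129, limma), ACADS without either T0 library (0.0558 and 0.105), and MDGA2 without T0 replicate 1, untreated replicate 1 or the filter on low guides (between 0.154 and 0.244). The highest value of all, 0.28, belonged to HOPX, which was called relative to targeting guides only (adjusted p = 0.0108, limma), and its untreated libraries stood apart, at 0.05 and 0.50, as did its guides, which ranged from -0.50 to 0.74.

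Tumour suppressors had values near those of other genes in most cases. NF1 (-0.31), KEAP1 (-0.32), STK11 (-0.25), CDKN1A (-0.20) and RB1 (-0.16) were lower relative to non-targeting guides, and TSC1 (-0.14), TSC2 (-0.09) and CDKN1B (-0.09) did not pass. Suppressors of YAP in the Hippo pathway had the highest median of all lists (-0.08). Relative to targeting guides, 4 of 19 were higher, against 1.78% of all genes, which were MAP4K4 (0.11), TAOK1 (0.10), TAOK3 (0.05) and FAT1 (0.03). Relative to non-targeting guides, 0 of 19 were higher, and these 4 values lay within the range of non-targeting guides taken 4 at a time (-0.079 to 0.14). NF2, the lowest gene of this list, went the other way, at -0.40 and -0.30 in the untreated libraries (L2FC = -0.35). Its call relative to targeting guides was not stable, as given above, and relative to neighbouring genes, described below, it was not called (adjusted p = 0.316, limma). Among the factors that the Hippo pathway restrains, WWTR1 (-0.46), a relative of YAP, and TEAD1 (-0.38) were lower relative to non-targeting guides, and YAP1 was at 0.00. Apoptosis promoters had a median of -0.16, equal to that of all genes, and core autophagy genes also -0.16.

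Families that lung cells are not known to need served as controls for cutting. Olfactory receptors had a median of -0.12, and 102 of 327 (31.2%) were lower relative to non-targeting guides, against 43.7% of all genes. Relative to all targeting guides, 3 (0.92%) were lower, against 9.29% of all genes, and 11 were higher, against 1.78%. Taste receptors and keratin-associated proteins had a median of -0.10 with 0 of 71 lower relative to all targeting guides (limma, all targeting guides as reference). In the list of beta-defensins and other tissue-restricted families, 2 of 93 were lower with both references, SPATA5L1 (-0.82) and SPATA5 (-0.75). These entered by the pattern of their names and are known to act in ribosome assembly.

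T0 cells had already been through selection and recovery, and the L2FC covers only what followed. Guides to essential genes were rarer than others at T0. Their level there, in counts scaled to library size (CPM), had a median of 8.84 for core essential genes, against 14.03 for all targeting guides, 15.0 for non-targeting guides and 15.9 for olfactory receptors. It was lowest for the 20S proteasome core, at 5.73, and the CCT chaperonin, at 6.86, whose L2FC medians were -0.77 and -0.73. Synthetases, with the lowest L2FC, stood at 10.6, ribosome assembly factors at 10.9 and the NEDD8 and cullin list at 14.6. The proteasome cap, at 7.42, had an L2FC of only -0.48. The level at T0 also reflects how often each guide was present in the plasmid library, which was not measured here.

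**Figure D4:**
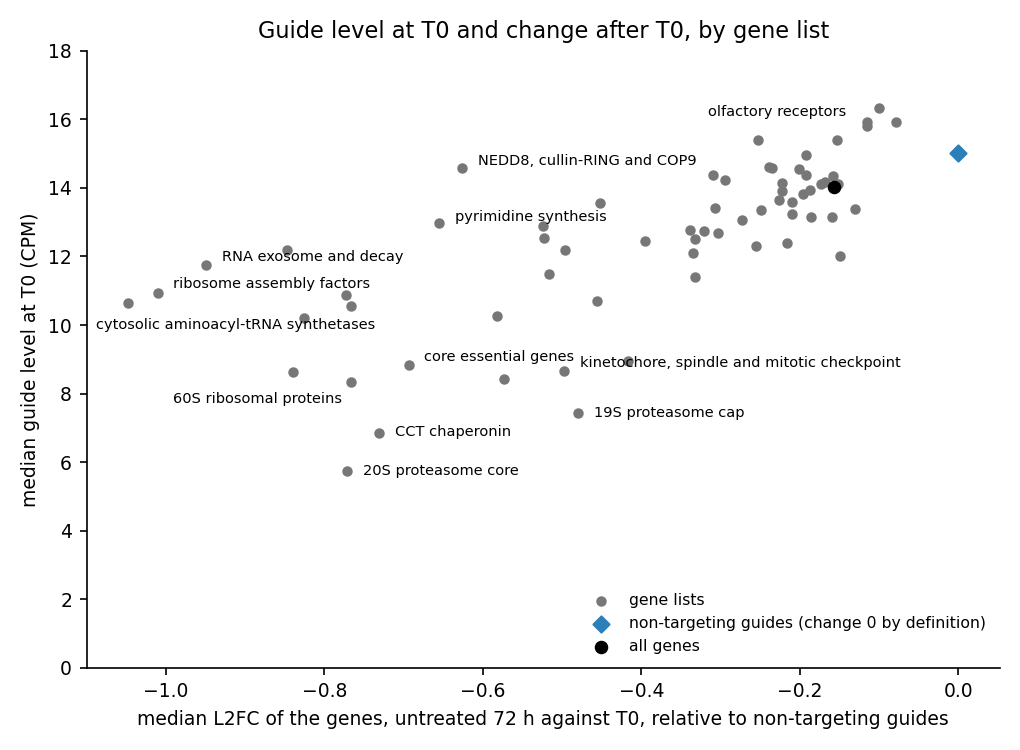
Median guide level at T0 in CPM (y axis, from 0) against the median L2FC of untreated cells against T0 relative to non-targeting guides (x axis), each point being a gene list, with all genes in black and non-targeting guides in blue. The 20S proteasome core has the lowest level at T0 at 5.73, while the NEDD8 and cullin list is depleted to a similar L2FC from 14.6.

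Not every core essential gene was called lower. Of the 250 tested, 227 were lower relative to non-targeting guides and 181 with both references. RFC1, the large clamp loader subunit, had an L2FC of -0.02, with 511, 215, 498 and 417 reads for its 4 guides in T0 replicate 1 and 491, 194, 503 and 409 in untreated replicate 1. POLR2A, the large subunit of RNA polymerase II, had an L2FC of -0.14, with 415, 461, 470 and 382 reads in T0 replicate 1 and 336, 504, 505 and 360 in untreated replicate 1. For comparison, the median guide had 518 reads in T0 replicate 1. CDC20 of the kinetochore and spindle list, which activates the anaphase-promoting complex, had a value of 0.10, and its guides had 484, 150 and 106 reads in T0 replicate 1, of which the latter 2 were low.

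Guides to the same gene often disagreed in size. Tested singly with edgeR, 3997 of 67531 guides (5.92%) were lower and 812 (1.2%) higher, counted against the overall library scale and not against non-targeting guides. On that scale 0 of the 138 non-targeting guides was lower and 8 were higher. Without T0 replicate 1 the counts were 2499 and 165, without T0 replicate 2 they were 2508 and 146, and without untreated replicate 1 or 2 the higher guides numbered 267 and 365. Among 14331 genes with 4 kept guides, 193 had all 4 called lower and 12560 had none. Of 187 core essential genes with 4 kept guides, 39 had none called, 37 had 1, 46 had 2, 36 had 3 and 29 had 4.

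The widest gaps between guides were seen for CPSF3, TRNT1, SNAPC4, PAFAH1B1 and TRAPPC4. For CPSF3, the nuclease of messenger RNA 3′ end formation, 3 guides lay between -2.25 and -1.27 and were called lower, while the remaining guide lay at -0.0099. That guide had 338 and 414 reads at T0 and 432 and 371 in untreated cells. TRNT1, which adds the CCA end to transfer RNAs, had 2 guides at -2.10 and -1.62 and 2 at 0.080 and -0.044, so its L2FC of -0.85 is a midpoint that no guide showed. In TRAPPC4, 3 guides were called lower and 1 lay at 0.036. Whether the guides near 0 cut their target was not tested.

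Gene values also followed position on chromosomes, taken from the RefSeq gene table (assembly GRCh38.p14), which supplied the order of genes. Median L2FC by chromosome ran from -0.26 on chromosome 22 and -0.23 on chromosome 19 to -0.095 on chromosome X. The longest run of low values lay on chromosome 10, where 170 neighbouring genes from ZNF239 to MAT1A had a median of -0.39, with medians of -0.39 in both untreated libraries. Of these, 166 lay below the median of all genes, 155 were lower relative to non-targeting guides and 75 relative to all targeting guides, against 9.29% of all genes. Its ends were chosen on these values, so the counts are a description.

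The values in the block ranged from POLR3A at -1.49 to the transcription factor EGR2 at -0.02, with 80% of genes between -0.59 and -0.22. It held OR13A1, an olfactory receptor, and genes of unrelated function. Of the genes named above, POLR3A, CDK1 and HK1 lie in it, and the part of the block in their values was not tested. A run on chromosome 22 from RBFOX2 to NHP2L1 held 105 genes with a median of -0.36, EIF3D, ADSL and RBX1 among them. WDR33 lies in a shorter run on chromosome 2, TRAPPC3, CDC20 and RRAGC lie in runs on chromosome 1, and CENPM in another on chromosome 22.

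When each gene was set against its 24 nearest tested neighbours, 1312 of 17705 genes were lower, against 1647 of them relative to all targeting guides, and 1251 were lower both ways. Relative to neighbours, EGFR was at -0.72 (adjusted p = 4.32e-05, limma) and RABGGTB at -1.69. NF2, on chromosome 22, was then at -0.12 (adjusted p = 0.316), NRAS, on chromosome 1, at -0.11 (adjusted p = 0.539), and KEAP1, on chromosome 19, at -0.02 (adjusted p = 0.931). Neither NRAS nor KEAP1 was called relative to all targeting guides either. MAS1, called higher relative to targeting guides, was at 0.26 (adjusted p = 0.058). Of 250 core essential genes, 172 were lower relative to neighbours. What sets the level of these runs was not tested.

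**Figure D5:**
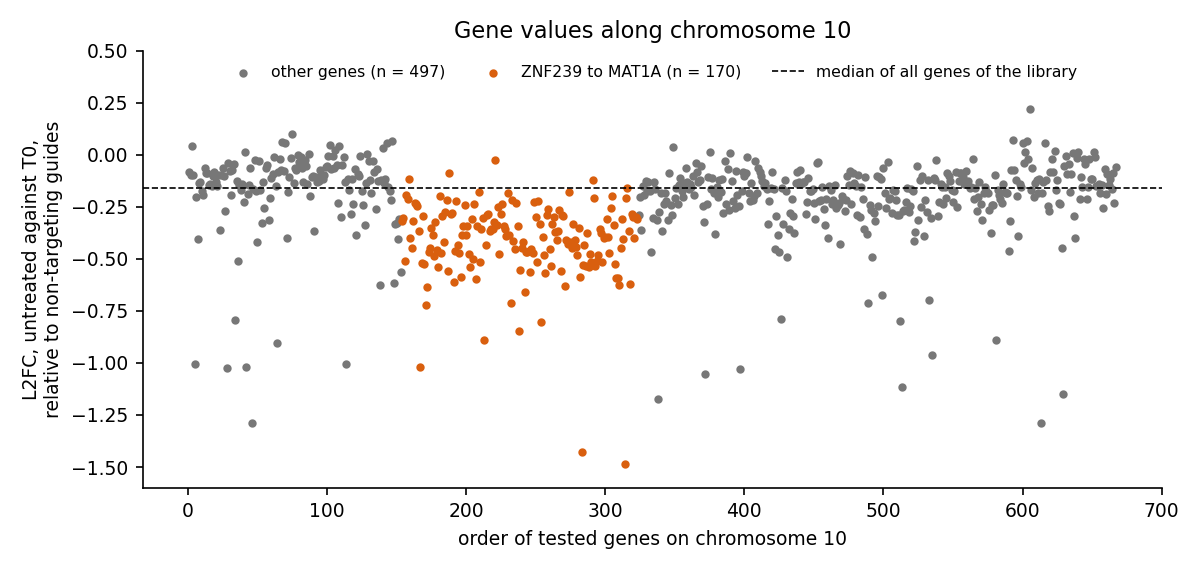
L2FC of untreated cells against T0 relative to non-targeting guides (y axis) for 667 tested genes in their order along chromosome 10 (x axis), with the 170 genes from ZNF239 to MAT1A in orange and the median of all genes as a dashed line. The orange genes lie mostly between -0.59 and -0.22, while the other genes of the chromosome have a median of -0.15. Some genes close to the ends of the block, such as HNRNPF (-0.56) and FAM213A (-0.36), are as low.

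Drug-treated cells were compared with untreated cells for the same genes. Relative to non-targeting guides, erlotinib-treated cells had 452 genes (2.54%) lower and 813 (4.58%) higher than untreated cells, and osimertinib-treated cells 1050 (5.91%) lower and 900 (5.07%) higher. These comparisons share the untreated libraries with the values above. Among the 15 lowest genes, DBR1, RNGTT, PMPCA, NAA10 and MVK were higher under each drug, by 1.06, 0.42, 0.98, 1.05 and 0.92 under erlotinib and by 0.51, 0.36, 0.44, 0.38 and 0.43 under osimertinib. GMPPB was lower under each drug, by -0.65 and -0.66, and RABGGTB under osimertinib (-0.42). Since these genes were picked for low untreated values, the higher values under drug are a description only.

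Of the 46 genes of EGFR signalling, growth control and tumour suppression, 21 were called higher or lower than in untreated cells under each drug. Among them, EGFR was higher under erlotinib by 0.39 (adjusted p = 0.0481, limma) and under osimertinib by 0.46 (adjusted p = 0.013). NF2 was higher by 1.00 and 1.20. ILK was lower by -1.62 and -1.22, and PDPK1 by -0.54 and -0.58. The chromosome 10 block had medians of -0.31 and -0.33 relative to T0 under erlotinib and osimertinib, against -0.39 in untreated cells. Since its ends were chosen on the untreated values, this difference is a description only.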

How the data were processed

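Raw counts of reads for each guide, not normalized, were deposited by the authors for 8 libraries. Guides were amplified from genomic DNA by PCR, with no molecular identifiers described, and mapped to the library with Bowtie2 per the methods, or Bowtie 1.3.1 per the submitters' processing notes. Read depth therefore bounds counting error only. Of 50 gene names altered by spreadsheet formatting, 49 were restored, and 4 guides were left out. Counts were scaled by TMM (edgeR 4.0.16), and guides in the lowest 5% by mean (below 46.0 reads) were dropped. Guide log2 CPM (prior count 1) minus the T0 mean were collapsed to the median of at least 2 guides, minus the median of non-targeting or of all targeting guides in that library. limma 3.58.1 (R 4.3.3) was fitted to all 8 libraries, with the contrast of untreated and T0. p-values were two-sided and adjusted over all genes by the Benjamini-Hochberg procedure at 0.05. Guides were tested with edgeR's quasi-likelihood test. The code was tested on simulated data.

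Genes named were the 15 lowest and 8 highest called genes with at least 3 kept guides, all on the same side of the reference, the 3 lowest and the highest of each list described, 46 genes of EGFR signalling and tumour suppression, the 5 genes with the widest gap between guides, and, chosen after their values were seen, further members of the lists and the genes HOPX, SPANXD and EGR2. The comparison, lists and genes were chosen with earlier results of these data known. Alternatives are given in the closing section. Gene lists were matched through RefSeq synonyms, and the chromosomal runs were found in these values. The higher osimertinib dose of the study was not analysed here. Some genes that the rule selects are not reported here.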

Additional observations from a re-analysis of the deposited data

How the results depend on the processing

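Gene counts are given as lower and higher, first relative to non-targeting and then to all targeting guides. With DESeq2 size factors, a prior count of 5 or no filter on low guides, they stayed within 1.5 times of the reported counts. With the 4 T0 and untreated libraries alone, 8 genes were higher relative to non-targeting guides and 641 relative to targeting guides, and 1488 guides were higher. With the mean over guides in place of the median, 12 and 1792 genes were higher. An empirical test modelled on the methods, here with draws of guides and extended to targeting guides, called 11727 lower and 30 higher, then 565 and 0. Relative to neighbouring genes, an alternative chosen after seeing the data, 1312 were lower and 140 higher. The guide test called 12802 lower and 57 higher when scaled on non-targeting guides, and 397 higher with DESeq2. Leaving out 1 library gave 4178 to 5240 lower and 1 to 5 higher, then 1054 to 1304 lower and 52 to 155 higher, and for guides 2499 to 2747 lower and 146 to 365 higher. Relative to non-targeting guides, the median of core essential genes was -0.69 as reported and -0.68 without the filter or with a prior count of 5. It was -0.73 with the mean, and between -0.69 and -0.67 without 1 library. Neighbouring genes are themselves targeted, and relative to them the median was -0.50, beside -0.53 relative to all targeting guides.

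Same-numbered libraries of T0 and untreated cells did not deviate together (r = -0.0063 across genes), so no pairing by number was seen. This cannot tell whether such libraries came from the same culture, which the labels do not state. With a replicate block, 7703 and 1608 genes were lower and 4026 guides were lower. Of 68 named genes, MAPK3 ranged from -0.087 to 0.00016 and AKT1 from -0.12 to 0.044 when 1 library was left out, the positive values being without T0 replicate 2 and without untreated replicate 1, and neither was called. Leaving out the chromosome 10 block changed no call of these genes. None of them lies in the block, and their values stayed the same. Only the adjustment of p-values could change, so this cannot test their calls. Depth limits low guides, and losses before T0 are not in these values.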
